A study of Mus musculus with 10 samples.

Results

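The Eif4 family encodes the proteins that load the ribosome onto the capped 5′ end of a messenger RNA. Its 10 members here are the cap-binding proteins Eif4e, Eif4e2 and Eif4e3, the DEAD-box RNA helicases Eif4a1, Eif4a2 and Eif4a3, the helicase cofactor Eif4b and the scaffolds Eif4g1, Eif4g2 and Eif4g3. A gene's transcripts were its RefSeq transcripts plus assembled multi-exon transcripts that share an intron with that gene and no other. By this rule 70 of 637618 transcripts listed for CD8SP cells and 61 of 686660 listed for CD4SP cells belong to the family. Among long-read isoforms, 17 of 9476 in CD8SP and 12 of 8289 in CD4SP are annotated to a member. The family was selected on earlier FPKM ratios and splicing shares of these same files, in which Eif4a1, Eif4e3, Eif4a2 and Eif4g2 differed between the lineages, so its values are a description and carry no test.

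Translation of most mRNAs begins with eIF4F, a complex in which eIF4E binds the cap, eIF4G bridges the cap to the ribosome and eIF4A unwinds structure in the leader, helped by eIF4B. The supply of eIF4E is held down by the 4E-BP proteins, which mTOR inactivates, and this control is well known from T cells that leave quiescence after antigen contact. Some relatives act elsewhere: Eif4a3 is a core subunit of the exon junction complex, Eif4e2 binds the cap without recruiting eIF4G, and Eif4g2 lacks the eIF4E-binding region of the other scaffolds.

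The study compared splicing between mature CD8SP thymocytes, committed to the cytotoxic lineage, and mature CD4SP thymocytes, committed to the helper lineage. All cells came from thymi of C57BL/6 mice aged 6 to 8 weeks, with 2 to 3 thymi pooled per sample, and no allele or treatment separated the groups. CD8SP cells were sorted as TCRβ+ CD24- cells after magnetic removal of CD4-bearing cells, and CD4SP cells likewise after removal of CD8-bearing cells. Each lineage has 1 PacBio long-read library and 4 short-read samples that differ by sequencing lane and are pooled in 1 file of values, so no difference below has a replicate check.

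The coreceptor and lineage genes went with the labels. All 5 CD8SP markers were higher in CD8SP, with summed levels of 984 FPKM in CD8SP and 60.3 FPKM in CD4SP, and all 4 CD4SP markers were lower, with 6.17 FPKM in CD8SP and 158 FPKM in CD4SP. FPKM is the number of fragments scaled to transcript length and to sequencing depth, so levels can be compared between genes. Of the markers of other cells, the B cell list of 4 genes summed to 5.51 FPKM in CD8SP and 0.679 FPKM in CD4SP, with Cd79a listed at 0 in both apart from a joined transcript that would give it 7.36 FPKM in CD4SP. Of the 3 myeloid genes, Cst3 had 29.3 FPKM in CD8SP and 22.6 FPKM in CD4SP, whereas Lyz2 had 0.254 FPKM in CD8SP and 0.669 FPKM in CD4SP and Itgam had 0.0524 FPKM in CD8SP and 0.615 FPKM in CD4SP. Together they summed to 29.6 FPKM in CD8SP and 23.8 FPKM in CD4SP, and the 2 haemoglobin genes to 3.44 FPKM in CD8SP and 3.74 FPKM in CD4SP. The 3 immature thymocyte genes summed to 4.67 FPKM in CD8SP and 13.5 FPKM in CD4SP, most of it Rag1, at 4.12 FPKM in CD8SP and 12.5 FPKM in CD4SP. The part of these cells in the member values was not tested. In bulk samples, fewer cells of a type and less RNA per cell cannot be told apart.

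The 10 genes summed to 395 FPKM in CD8SP and 404 FPKM in CD4SP, and to 459 FPKM in CD8SP and 416 FPKM in CD4SP with joined transcripts, described next, counted as well. Without Eif4a1 the first sum was 387 FPKM in CD8SP and 298 FPKM in CD4SP. The members had a median log2 ratio of CD8SP over CD4SP of 0.31. The median over all 9623 measured genes, those with at least 1 FPKM in a lineage, was 0.22, so a small positive ratio is shared by most genes. A gene was called where the lineages' deposited intervals did not overlap and the log2 ratio, with 0.1 FPKM added to both levels, reached 1 in either direction. Of the members 2 were called, Eif4e3 as higher and Eif4a1 as lower in CD8SP, against 14.7% of all measured genes called, 9.99% higher and 4.72% lower in CD8SP. Dividing out the shift between the libraries, which is 0.21 on the log2 scale over genes at 1 FPKM or more in both, called 653 genes higher and 632 lower, against 961 higher and 454 lower without it. Both members were called either way.

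Both calls go with transcripts that join the member to a neighbouring gene and are therefore counted for neither gene. When such joined transcripts were counted for each gene they share an intron with, none of the 10 members was called, against 14.4% of all measured genes. Of the other 8 members, none reached a log2 ratio of 1 in either count. Their ratios lay between -0.22 for Eif4g1 and 0.78 for Eif4g2, which rank 2086 and 8066 of the 9623 genes ordered from the lowest ratio. Eif4a1 ranked 82 and Eif4e3 ranked 9605.

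**Figure D1:**
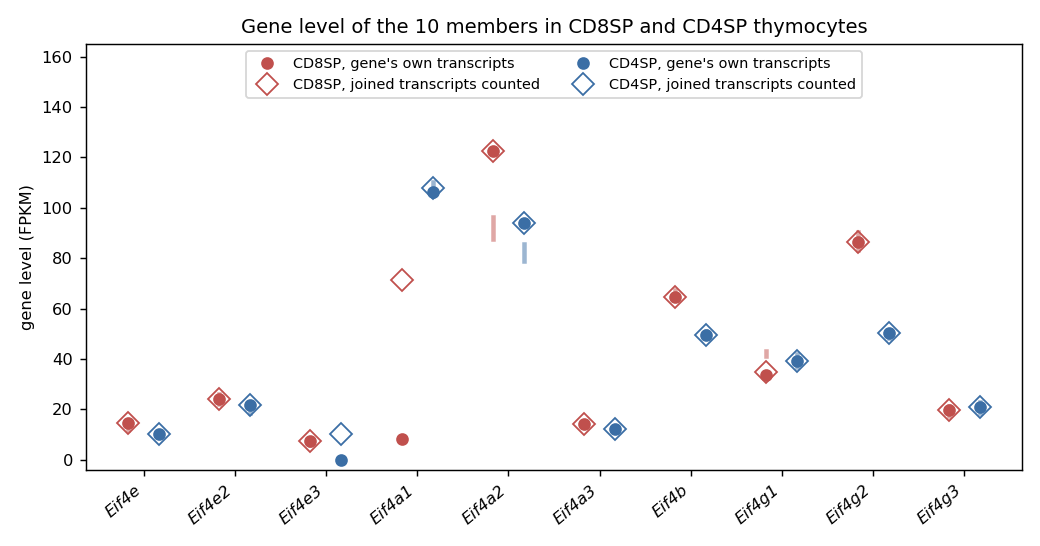
Gene level in FPKM of the 10 members in CD8SP (red, left of each pair) and CD4SP (blue). Filled points are the sum over a gene's own transcripts, vertical bars the summed deposited intervals, and open diamonds the level with joined transcripts counted; points and diamonds part widely for Eif4a1 in CD8SP (8.28 and 71.2 FPKM) and for Eif4e3 in CD4SP (0 and 10.1 FPKM).

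With joined transcripts left out, the levels in CD8SP ran in the order Eif4a2, Eif4g2, Eif4b, Eif4g1, Eif4e2, Eif4g3, Eif4e, Eif4a3, Eif4a1 and Eif4e3. Of these neighbours, Eif4a2 and Eif4g2, and Eif4e and Eif4a3, had overlapping intervals. In CD4SP the order was Eif4a1, Eif4a2, Eif4g2, Eif4b, Eif4g1, Eif4e2, Eif4g3, Eif4a3, Eif4e and Eif4e3, with overlapping intervals between Eif4g2 and Eif4b, between Eif4e2 and Eif4g3, and between Eif4a3 and Eif4e. The place of Eif4a1 in CD8SP depends on the count, since with joined transcripts it stood at 71.2 FPKM, above Eif4b at 64.6 FPKM. The intervals are an incomplete measure of error, because the summed FPKM of Eif4a2, Eif4e, Eif4e3 and Eif4g1 in CD8SP and of Eif4a2 in CD4SP lies outside its own interval.

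Among the cap-binding proteins, Eif4e itself, the limiting subunit of eIF4F (chr3:138526179-138559696 on GRCm38, plus strand), stood at 14.4 FPKM in CD8SP and 10.3 FPKM in CD4SP, a log2 ratio of 0.48. Transcripts other than the RefSeq one carried 53.4% of that level in CD8SP and 25.3% in CD4SP. The RefSeq transcript alone was at 6.73 FPKM in CD8SP and 7.70 FPKM in CD4SP, so the higher sum in CD8SP rests on assembled transcripts. An exon-based value, which weights every transcript by how much of the RefSeq exon sequence of Eif4e it covers, was 9.66 FPKM in CD8SP and 10.2 FPKM in CD4SP, with the opposite sign. The third intron of Eif4e, 1231 bases long, was retained in 4.42% of the summed FPKM in CD8SP and 25.3% in CD4SP. Its retaining form stood at only 0.549 FPKM in CD8SP and 2.61 FPKM in CD4SP.

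Eif4e2, also known as 4EHP, a cap-binding protein that represses the mRNAs it holds (chr1:87213914-87240488, plus strand), stood at 24.0 FPKM in CD8SP and 21.9 FPKM in CD4SP, and its log2 ratio of 0.14 turns to -0.08 once the shift between the libraries is divided out. Its RefSeq transcripts alone summed to 20.1 FPKM in CD8SP and 10.4 FPKM in CD4SP, a log2 ratio of 0.94, and the exon-based value was 12.7 FPKM in CD8SP and 8.86 FPKM in CD4SP, a log2 ratio of 0.52, so the near equality holds only with assembled transcripts counted in full. The transcripts also end differently. The last intron leads either to an upstream or to a downstream last exon, and the upstream form carried 60.7% of the summed FPKM in CD8SP and 26.5% in CD4SP. The upstream form stood at 12.2 FPKM in CD8SP and 4.51 FPKM in CD4SP, and the downstream form at 7.88 FPKM in CD8SP and 12.5 FPKM in CD4SP. The bounds from the deposited intervals were 57.4% to 64.0% in CD8SP and 21.7% to 29.8% in CD4SP. With RefSeq transcripts alone the shares were 60.7% in CD8SP and 43.4% in CD4SP, which is under the 20 percentage points required for a call. The coding ends of both forms are printed because this is the only called event of the family with both forms above 0 FPKM in both lineages and annotated in RefSeq. The sequences come from GENCODE release M21 on GRCm38, 5′ to 3′, without the stop codon, with the bases of the last exon in capitals and the last 30 bases of the shared exon before it in lower case. The capitals are 70 bases at chr1:87227801-87227870 in the upstream form and 37 bases at chr1:87237846-87237882 in the downstream form.
Eif4e2 upstream end: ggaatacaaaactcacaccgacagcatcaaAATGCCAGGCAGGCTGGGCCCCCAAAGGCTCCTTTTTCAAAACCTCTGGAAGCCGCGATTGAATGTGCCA
Eif4e2 downstream end: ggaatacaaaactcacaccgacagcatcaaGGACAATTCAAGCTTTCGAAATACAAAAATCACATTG

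Both forms end the protein in a tail of their own, and G and C make up 55.7% of the upstream stretch and 32.4% of the downstream one. At the other end of Eif4e2, an alternative 5′ splice site lengthens the first exon by 476 bases. The longer form carried 48.8% of the summed FPKM in CD8SP and 29.2% in CD4SP, a difference of 19.6 points that falls just short of a call. With RefSeq transcripts alone the shares were 48.8% in CD8SP and 43.4% in CD4SP, a difference of 5.40 points. In RefSeq the longer first exon occurs in the transcript NM_001039169, which also has the upstream last exon, so these events are not independent. That transcript stood at 9.80 FPKM in CD8SP and 4.51 FPKM in CD4SP, and NM_023314, with the downstream end, at 7.88 FPKM in CD8SP and 5.89 FPKM in CD4SP. The third RefSeq transcript, NM_001039170, was at 2.40 FPKM in CD8SP and listed at 0 in CD4SP. Neither long-read table lists an Eif4e2 isoform.

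Eif4e3, a more distant cap-binding relative (chr6:99625135-99666771, minus strand), stood at 7.36 FPKM in CD8SP and was listed at 0 in CD4SP. The CD8SP value comes from the single RefSeq transcript and lies above its own deposited interval of 5.82 to 6.76 FPKM. In CD4SP the first 5 of the 6 Eif4e3 introns were carried by 1 assembled transcript of 12 exons at 10.1 FPKM that runs on into Foxp1, a forkhead transcription factor gene downstream of it, and shares 5 introns with Eif4e3 and 3 with Foxp1. Each of those 5 introns therefore stood at 7.36 FPKM in CD8SP and 10.1 FPKM in CD4SP. The last intron stood at 7.36 FPKM in CD8SP and was listed at 0 in CD4SP. With the joined transcript counted the log2 ratio of Eif4e3 was -0.46, the opposite sign, and the exon-based value was 7.36 FPKM in CD8SP and 2.41 FPKM in CD4SP. Whether the joined transcript is a molecule of these cells was not tested, and no long-read isoform of Eif4e3 is listed in either library. Foxp1 without the joined transcript stood at 39.7 FPKM in CD8SP and 58.9 FPKM in CD4SP.

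Of the helicases, Eif4a1, the usual helicase of eIF4F (chr11:69666936-69672423, minus strand), stood at 8.28 FPKM in CD8SP and 106 FPKM in CD4SP, a log2 ratio of -3.66. In CD8SP the whole sum was the RefSeq transcript NM_001159375. That transcript had nearly the same value in CD4SP, 8.22 FPKM, and assembled transcripts made up the other 92.3%. The largest of these, at 90.3 FPKM, has 9 exons and splices 8 introns, all of them annotated for Eif4a1. In CD8SP a joined transcript of 13 exons and 62.9 FPKM begins in Senp3, the SUMO protease gene upstream, and ends within Eif4a1 after 2 of its introns. Counting it, Eif4a1 stood at 71.2 FPKM in CD8SP and 108 FPKM in CD4SP, a log2 ratio of -0.60. Senp3 outside the joined transcript was listed at 0 in CD8SP and stood at 10.95 FPKM in CD4SP.

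The introns of Eif4a1 show where the lineages part. Counting every transcript that splices it, the first intron stood at 71.2 FPKM in CD8SP and 108 FPKM in CD4SP, and the second at 71.2 FPKM in CD8SP and 100.4 FPKM in CD4SP. Introns 3 and 4 were low in both lineages, at 8.28 FPKM each in CD8SP and at 10.1 and 8.22 FPKM in CD4SP, since the largest transcript of each lineage keeps them. Their retained forms carried 89.1% of the summed FPKM in CD8SP, for intron 3 and intron 4 alike, and 90.6% for intron 3 and 92.4% for intron 4 in CD4SP. From intron 5 to intron 9 every intron stood at 8.28 FPKM in CD8SP and between 98.5 and 106 FPKM in CD4SP. The exon-based value, which also reflects exons without their introns, was 33.6 FPKM in CD8SP and 93.8 FPKM in CD4SP, a log2 ratio of -1.48. By that value Eif4a1 and Eif4e3 were both past a log2 ratio of 1, against 10.9% of all genes. A CD8SP transcript of Mpdu1, at 4.59 FPKM, has an exon of 5507 bases that covers Eif4a1 from intron 3 to its last intron unspliced. By that transcript introns 5 to 9 were each retained in 35.6% of the summed FPKM in CD8SP, against 8.75% for intron 5, 1.88% for intron 6 and 1.75% for introns 7, 8 and 9 in CD4SP. In CD4SP the transcript that retains introns 6 to 9, joined to Mpdu1, stood at 1.89 FPKM.

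**Figure D2:**
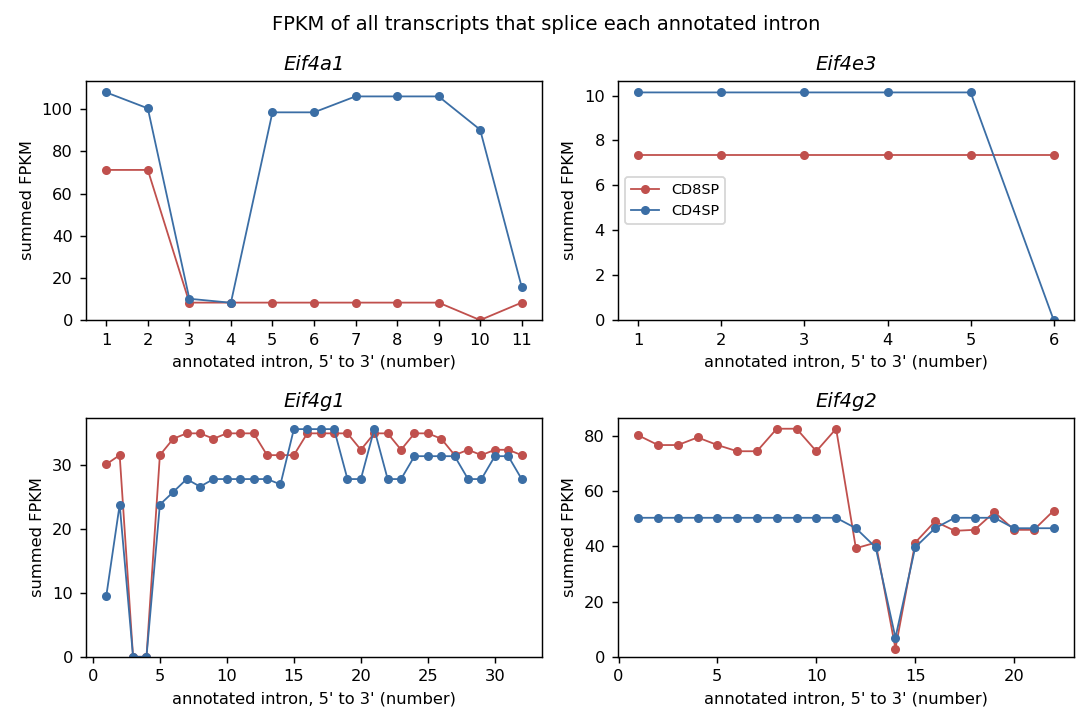
Summed FPKM of all transcripts, joined ones included, that splice each annotated intron of Eif4a1, Eif4e3, Eif4g1 and Eif4g2, with introns numbered in order along the gene from its 5′ end, alternative introns included (CD8SP red, CD4SP blue). CD8SP lies at 8.28 FPKM from intron 5 to intron 9 of Eif4a1 while CD4SP lies near 100, CD4SP drops to 0 at the last Eif4e3 intron, and the CD8SP line of Eif4g2 steps down after intron 11.

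The last exon of Eif4a1 has an alternative 3′ splice site, and its use was the other called annotated event of the family. The site 11 bases upstream, at chr11:69667607-69667617 on the minus strand, was listed at 0 in CD8SP, with the shorter form at 8.28 FPKM, and carried 85.1% of the summed FPKM in CD4SP. In CD4SP the longer form stood at 90.3 FPKM, all of it in the assembled transcript named above, and the shorter form at 15.8 FPKM. The longer form's own RefSeq transcript, NM_144958, was listed at 0 in both lineages. The share of 0 in CD8SP rests on the 8.28 FPKM alone, since the larger transcript joined to Senp3 ends before this site. The single long-read Eif4a1 isoform of CD8SP was matched to a GENCODE transcript with the 11 bases and ends 7 bases from that transcript's end. So the longer form is listed in CD8SP long reads, in an isoform flagged for possible template switching. A stretch of 11 bases is not a whole number of codons, so the choice of site changes the reading frame. In the spliced GENCODE transcript the open reading frame with the 11 bases holds 406 codons before its stop, and without them it holds 364, ending 16 bases into the last exon. Both forms around the junction are printed, with 30 coding bases on each side and the 11 bases in capitals, from GENCODE release M21.
Eif4a1 with the stretch: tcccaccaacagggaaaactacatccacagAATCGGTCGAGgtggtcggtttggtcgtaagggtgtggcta
Eif4a1 without the stretch: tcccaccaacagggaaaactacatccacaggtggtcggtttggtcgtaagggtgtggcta

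Eif4a2, the closest paralog of Eif4a1, which can take its place in eIF4F (chr16:23107444-23114136, plus strand), stood at 123 FPKM in CD8SP and 93.9 FPKM in CD4SP, a log2 ratio of 0.38 and 0.17 with the library shift divided out. RefSeq transcripts carried 59.3 FPKM of this in CD8SP and 51.6 FPKM in CD4SP. The split between them was nearly equal in both lineages. The transcript with a coding exon of 140 bases, at chr16:23109120-23109259, carried 74.1% of the summed FPKM in CD8SP and 74.7% in CD4SP, with bounds of 71.5% to 75.2% in CD8SP and 73.0% to 76.7% in CD4SP. The same 2 RefSeq transcripts differ in a 3′ splice site, so that event has the same shares. Retention of intron 2 was 25.0% in CD8SP and 45.1% in CD4SP, and that of intron 6 was 24.2% in CD8SP and 45.1% in CD4SP, both CD4SP values lying above bounds of 34.9% to 38.8%. An acceptor 3 bases upstream of the RefSeq site at the end of intron 1 was used at 4.56% in CD8SP and 28.1% in CD4SP, the CD4SP value lying above its bounds of 19.8% to 22.7%. The first intron of the RefSeq transcripts stood at 100.7 FPKM in CD8SP and 51.6 FPKM in CD4SP. Snora81, a small nucleolar RNA encoded in an Eif4a2 intron, had 357 FPKM in CD8SP and 279 FPKM in CD4SP, far above intervals that end at 60.7 and 51.0 FPKM.

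Eif4a3, the helicase that marks exon junctions after splicing (chr11:119288363-119300089, minus strand), stood at 14.3 FPKM in CD8SP and 12.1 FPKM in CD4SP, a log2 ratio of 0.24. Every one of its 11 introns was higher in CD8SP, with a median of 10.9 FPKM in CD8SP and 7.08 FPKM in CD4SP. Intron 7, of 194 bases, was retained in 3.22% of the summed FPKM in CD8SP and 29.4% in CD4SP. The retaining form stood at only 0.382 FPKM in CD8SP and 2.95 FPKM in CD4SP. The near-identical copy Eif4a3l1 was at 0.239 FPKM in CD8SP and 0.156 FPKM in CD4SP, and reads could be split between the copies. Eif4b, the RNA-binding cofactor that stimulates eIF4A (chr15:102073773-102097173, plus strand), stood at 64.6 FPKM in CD8SP and 49.3 FPKM in CD4SP, a log2 ratio of 0.39. Its single RefSeq transcript made up all but 9.26% of that level in CD8SP and 6.55% in CD4SP, and all 14 introns were higher in CD8SP, with medians of 61.0 FPKM in CD8SP and 49.3 FPKM in CD4SP. Of the members with assembled transcripts in both lineages it had the smallest share of them.

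The scaffold Eif4g1, the main eIF4G (chr16:20668313-20692884, plus strand), stood at 33.5 FPKM in CD8SP and 39.2 FPKM in CD4SP, a log2 ratio of -0.22. The CD8SP sum lies under its own interval of 41.0 to 43.3 FPKM, which overlaps the CD4SP interval of 36.8 to 42.0 FPKM. In CD8SP 30.1 FPKM came from NM_001005331, a RefSeq transcript with no entry in the gene table that was placed here because 30 of its 31 introns are annotated for Eif4g1. It had 9.50 FPKM in CD4SP. Without it the gene would read 3.41 FPKM in CD8SP and 29.7 FPKM in CD4SP, and with RefSeq transcripts alone 30.1 FPKM in CD8SP and 9.50 FPKM in CD4SP, so the sign of the ratio follows which transcripts carry the value. Intron by intron the lineages lay closer, with a median of 33.3 FPKM in CD8SP and 27.8 FPKM in CD4SP, and 25 of the 30 introns at 1 FPKM or more were higher in CD8SP. The first intron differed most, at 30.1 FPKM in CD8SP and 9.50 FPKM in CD4SP. Inside that intron lies an exon of 57 bases, chr16:20673599-20673655, upstream of the start codon in GENCODE. The form that skips the exon is the first intron itself, so the exon's share and the intron's difference are not independent. The exon was included in 4.52% of the summed FPKM in CD8SP and 60.1% in CD4SP. It stood at 1.43 FPKM in CD8SP, all in a transcript joined to Fam131a, and at 14.3 FPKM in CD4SP. The CD8SP share lies above its bounds of 3.23% to 3.98%. The intron that follows it was retained in 37.0% in CD8SP and 8.24% in CD4SP, with the retaining form at only 0.839 FPKM in CD8SP and 1.36 FPKM in CD4SP. The annotated coding exon of 21 bases, printed to show the stretch that tells the RefSeq transcripts of Eif4g1 apart, was listed at 0 FPKM in both lineages, with the form that skips it at 35.0 FPKM in CD8SP and 26.0 FPKM in CD4SP.
Eif4g1 exon of 21 bases, chr16:20674786-20674806, plus strand: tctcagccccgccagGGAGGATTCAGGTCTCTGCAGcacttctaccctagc

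Eif4g2, also known as DAP5 or NAT1, a scaffold that works without eIF4E (chr7:111067750-111083030, minus strand), had the highest ratio of the members that were not called, with 86.5 FPKM in CD8SP and 50.3 FPKM in CD4SP and a log2 ratio of 0.78. Among its counted transcripts the difference lay in the 5′ part of the gene. From intron 1 to intron 11 the FPKM was between 74.4 and 82.6 in CD8SP and 50.3 in CD4SP. From intron 15 to intron 22 it was between 41.3 and 52.9 in CD8SP and between 39.6 and 50.3 in CD4SP, so those ranges overlap. In CD8SP an assembled transcript of 14 exons and 31.3 FPKM made up 36.2% of the gene, whereas the largest assembled transcript of CD4SP had 3.78 FPKM. The long RefSeq transcript NM_013507 was at 33.2 FPKM in CD8SP and 39.6 FPKM in CD4SP. The RefSeq transcripts differ by a coding exon of 114 bases, a whole number of codons, just downstream of an exon of 161 bases. Among transcripts spliced from the 3′ end of the 161-base exon, the 114-base exon was included at 93.3% in CD8SP and 85.2% in CD4SP. The bounds were 92.7% to 94.0% in CD8SP and 84.3% to 86.0% in CD4SP. These shares leave out the form that skips both exons, at 31.3 FPKM in CD8SP and 3.78 FPKM in CD4SP. The form with the 114-base exon stood at 41.3 FPKM in CD8SP and 39.6 FPKM in CD4SP. The form that skips only this exon stood at 2.97 FPKM in CD8SP and 6.91 FPKM in CD4SP. When the form that skips both exons is also counted as lacking the 114-base exon, the direction reverses, with the lower share in CD8SP. The 161-base exon was included in 8.67% in CD8SP and 64.6% in CD4SP of the transcripts that lack the 114-base exon. Among those with the 114-base exon it was included in 93.3% in CD8SP and 53.6% in CD4SP, the CD4SP value lying under its bounds of 58.3% to 63.0%. The CD4SP form without it is a single assembled transcript of 34.3 FPKM that lies inside Eif4g2 but shares none of its annotated introns, and so is not in the gene sum. With it Eif4g2 would stand at 86.5 FPKM in CD8SP and 84.7 FPKM in CD4SP, which are nearly equal. For the other members, transcripts of this kind added at most 1.35 FPKM in a lineage. The 114-base exon is shown in capitals with 15 coding bases on each side, beside the 33-base exon of Eif4g3, described below.
Eif4g2 exon of 114 bases, chr7:111076280-111076393, minus strand: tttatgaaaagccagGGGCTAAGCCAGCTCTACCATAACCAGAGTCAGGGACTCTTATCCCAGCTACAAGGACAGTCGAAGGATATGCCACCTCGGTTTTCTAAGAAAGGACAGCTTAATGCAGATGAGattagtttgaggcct
Eif4g3 exon of 33 bases, chr4:138087533-138087565, plus strand: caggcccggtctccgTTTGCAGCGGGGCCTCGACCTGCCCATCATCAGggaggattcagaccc

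Eif4g3, the paralog of Eif4g1 also known as eIF4GII (chr4:137993022-138208508, plus strand), stood at 19.6 FPKM in CD8SP and 20.7 FPKM in CD4SP, a log2 ratio of -0.08. It had the most transcripts of the family, 20 in CD8SP and 18 in CD4SP, and assembled ones carried 67.2% of its level in CD8SP and 61.4% in CD4SP. In 36 of its 38 introns at 1 FPKM or more the value was lower in CD8SP, with medians of 11.8 FPKM in CD8SP and 13.9 FPKM in CD4SP. The 33-base exon printed above was included at 7.97% in CD8SP and 22.1% in CD4SP, with bounds of 6.60% to 9.37% in CD8SP and 19.8% to 24.3% in CD4SP, a difference of 14.1 points that is under the size required for a call. It rests on low levels, 0.513 FPKM with the exon in CD8SP and 1.77 FPKM in CD4SP. An exon of 129 bases was included at 80.5% in CD8SP and 77.1% in CD4SP, and a 3′ splice site that adds 57 bases was used at 27.8% in CD8SP and 31.6% in CD4SP, both with overlapping bounds. All 3 stretches are whole numbers of codons.

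Over the whole family, 10 annotated events, those with both forms in RefSeq, reached a summed FPKM of 1 in both lineages. Of these 2 were called, which is near the background of 16.9% of annotated events in all genes. The median difference between the lineages was 5.97 points in the family and 6.56 points over all 2762 annotated events. Eif4a3, Eif4b, Eif4e and Eif4e3 had no such event. Of all events with both forms above 0 FPKM in both lineages, annotated or not, 16 of 80 in the family were called, against 12.3% in all genes. Eif4a1 had 6 of these 16, Eif4a2 had 3, and Eif4g3, with 18 events, had none. Events of 1 gene share transcripts and are not independent.

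**Figure D3:**
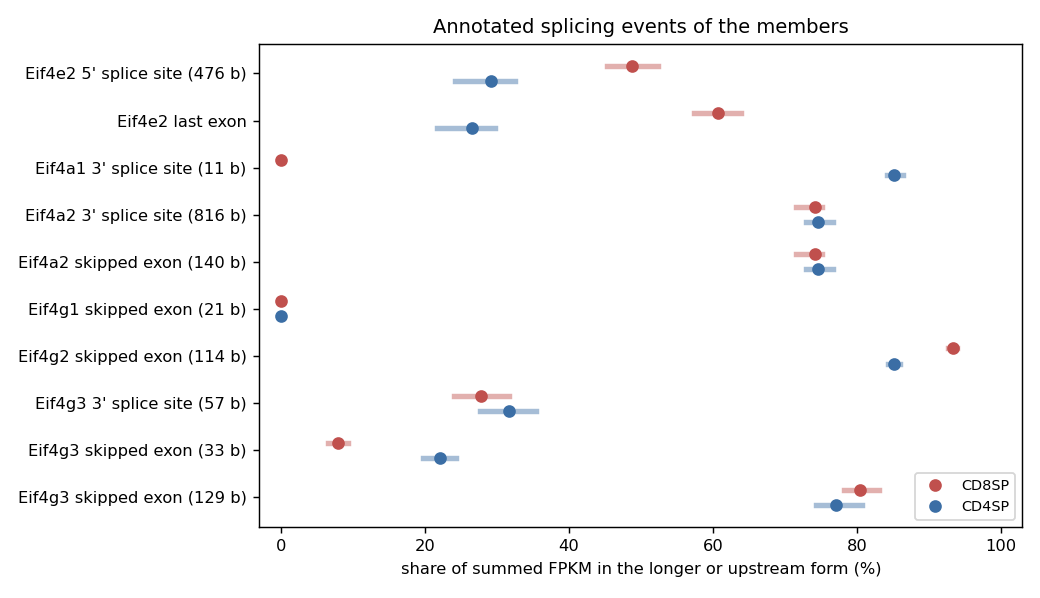
Share of summed FPKM in the longer or upstream form of the 10 annotated events of the family (CD8SP red, above; CD4SP blue), in percent, with bars for the bounds from the deposited intervals and lengths in bases (b). The points lie far apart for the Eif4a1 3′ splice site (0% and 85.1%) and the Eif4e2 last exon (60.7% and 26.5%) and close together for Eif4a2.

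At least 2 RefSeq transcripts, and 1 FPKM in both lineages, were found for 6 members. In none of these 6 did a RefSeq transcript's share of the RefSeq sum differ by 20 points, against 22.0% of 1817 genes. The closest was NM_023314 of Eif4e2, at 39.3% in CD8SP and 56.6% in CD4SP. With assembled transcripts in the denominator 4 of the 6 differed by that much, against 34.5% of genes. They were NM_001159375 of Eif4a1, at 100% in CD8SP and 7.75% in CD4SP, NM_001005331 of Eif4g1, at 89.8% in CD8SP and 24.2% in CD4SP, NM_013507 of Eif4g2, at 38.4% in CD8SP and 78.8% in CD4SP, and NM_001039169 of Eif4e2, at 40.7% in CD8SP and 20.6% in CD4SP.

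The long-read tables list each collapsed isoform without a read count, so they show which structures were seen and not how often. Members made up 0.179% of CD8SP isoforms (exact Clopper-Pearson 95% interval 0.105% to 0.287%) and 0.145% of CD4SP isoforms (0.0748% to 0.253%). These intervals cover counting error only. In CD8SP 8 members had an isoform and in CD4SP 4, namely Eif4a3, Eif4e, Eif4g1 and Eif4g3, each of which also had one in CD8SP. Eif4a1, Eif4a2, Eif4b and Eif4g2 had 1 isoform each in CD8SP and none in CD4SP. A count of 0 among the 8289 CD4SP isoforms allows a share of up to 0.0445% by the same interval, and a count of 1 in CD8SP has an interval of 0.000267% to 0.0588%, so these intervals overlap.

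**Figure D4:**
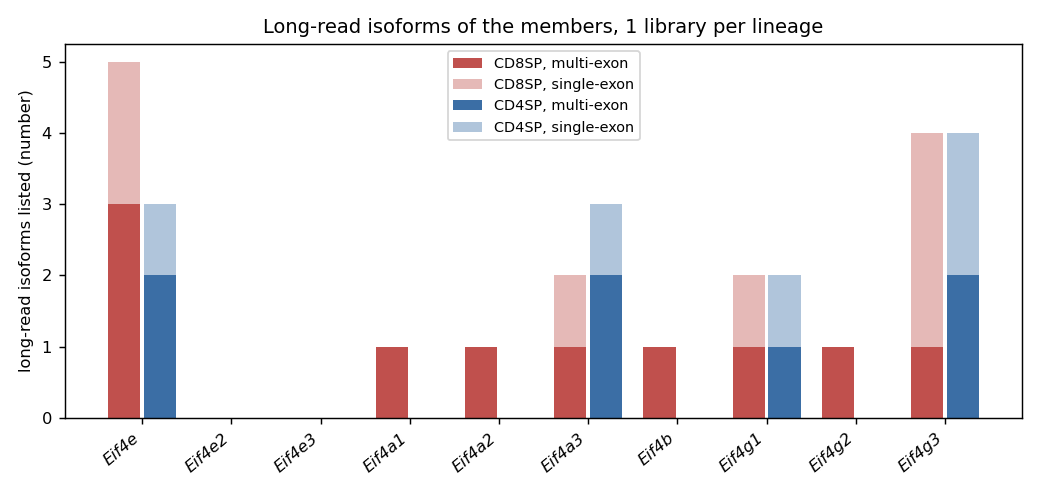
Number of long-read isoforms listed for each member in the CD8SP library (red, left) and the CD4SP library (blue), multi-exon isoforms dark and single-exon isoforms pale. Eif4e has 5 in CD8SP and 3 in CD4SP, Eif4g3 has 4 in each, and Eif4e2 and Eif4e3 have none.

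Of the member isoforms 8 matched between the libraries, with the same gene, category and exon number and both ends within 20 bases, which is 47.1% of those in CD8SP and 66.7% of those in CD4SP. Among these matches, the single-exon isoforms of Eif4a3, Eif4e and Eif4g3 and the 24-exon isoform of Eif4g3 were followed by 75% to 85% A. The part of priming at such stretches was not tested. The longest matched isoform was of Eif4g1, with 29 of the 32 exons of its reference transcript, and had 5023 bases in CD8SP and 5022 in CD4SP. One match, of Eif4g3 with 24 exons, was assigned to different GENCODE transcripts in the libraries, and its lengths of 4327 bases in CD8SP and 4269 bases in CD4SP differ by 58 bases. The CD8SP reference transcript carries the 57-base stretch described above and the CD4SP one lacks it, but CD4SP also lists a 24-exon isoform of 4216 bases placed on the first. Eif4e was matched by a pair of 3-exon isoforms with retained introns. The Eif4b isoform of CD8SP, with 3693 bases and 15 exons, as many as the reference, has a splice site of its own and a non-canonical junction, and its open reading frame was given as 363 codons. Eif4a3 had a full match to its 12-exon transcript in CD4SP, with 1496 bases, and in CD8SP a full match to a 2-exon transcript, with 1814 bases and a predicted target of nonsense-mediated decay. The single Eif4a1 isoform of CD8SP has 8 exons and 1472 bases and is flagged in the deposited table for possible template switching. CD4SP instead lists an unspliced isoform of 3138 bases that spans Eif4a1 and Cd68. Single-exon isoforms made up 41.2% of the members' isoforms in CD8SP (7 of 17) and 41.7% in CD4SP (5 of 12). Of all isoforms, single-exon ones made up 64.7% in CD8SP and 66.8% in CD4SP. The exact Clopper-Pearson intervals of the member shares were 18.4% to 67.1% in CD8SP and 15.2% to 72.3% in CD4SP. Each interval covers the share of its own library, so these counts do not separate the members from all isoforms.

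The other genes of translation initiation lay close to the genome-wide median. Of 72 genes listed by role, 71 were matched and 69 measured, with a median log2 ratio of 0.29. Called were 2 as higher and 3 as lower in CD8SP, where 14.7% of all measured genes were called. Larp4, a poly(A)-binding protein partner, had 11.4 FPKM in CD8SP and 3.54 FPKM in CD4SP, but exon-based values of 8.04 FPKM in CD8SP and 6.79 FPKM in CD4SP. Eif3j2 had 3.38 FPKM in CD8SP and was listed at 0 in CD4SP, whereas its near-identical copy Eif3j1 was listed at 0 in CD8SP and had 2.09 FPKM in CD4SP, so reads of these eIF3 subunits may have been split between them. The S6 kinase gene Rps6kb2 had 1.03 FPKM in CD8SP and 3.998 FPKM in CD4SP, and Mlst8, an mTOR complex subunit, had 2.84 FPKM in CD8SP and 5.87 FPKM in CD4SP. With joined transcripts counted neither was called by the same rule, with log2 ratios of 0.10 for Rps6kb2 and -0.56 for Mlst8.

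**Figure D5:**
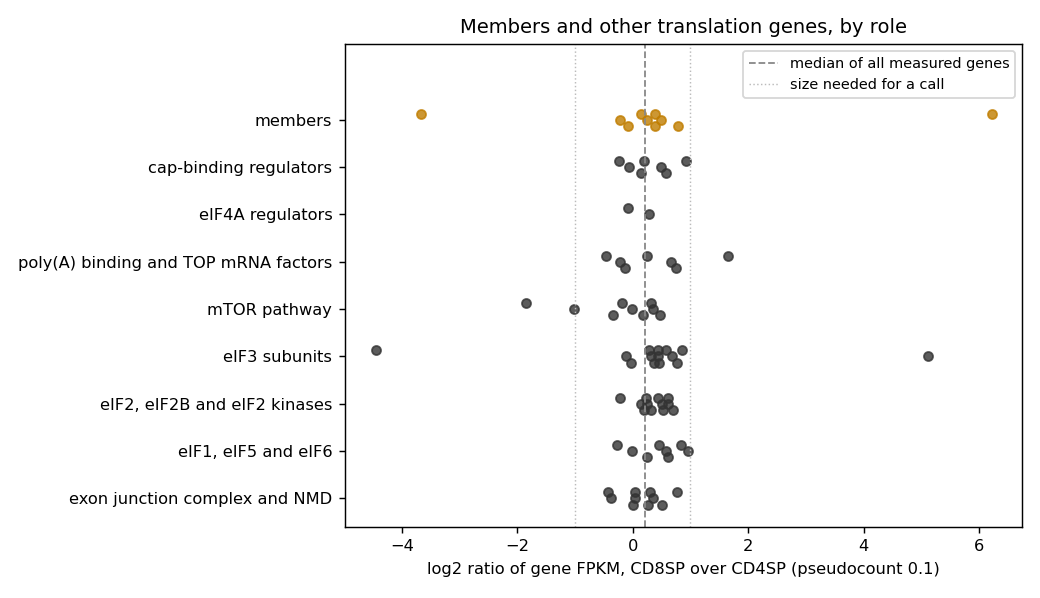
Log2 ratio of gene FPKM, CD8SP over CD4SP, for the 10 members (orange) and the 69 measured translation genes by role (grey), 1 point per gene. The dashed line is the median of all measured genes (0.22), dotted lines the size required for a call, and 5 grey points and 2 orange points lie beyond them.

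The other genes are given by the lowest and highest log2 ratio of each role. The cap-binding regulators ran between -0.24 for Gigyf1, a partner of Eif4e2 in repression, and 0.92 for Eif4ebp1, a 4E-BP at 1.997 FPKM in CD8SP and 1.01 FPKM in CD4SP. The eIF4A regulators were Pdcd4, an inhibitor of the helicase, at -0.08, and Eif4h, a relative of Eif4b, at 0.28. Poly(A)-binding and TOP mRNA factors other than Larp4 ran between -0.46 for Pabpc4 and 0.76 for Larp1, and the other mTOR pathway genes between -0.34 for Tsc1 and 0.48 for Rps6kb1. The eIF3 subunits apart from the Eif3j copies ran between -0.11 for Eif3a and 0.85 for Eif3g. Genes of eIF2, eIF2B and the eIF2 kinases ran between -0.22 for Eif2ak1 and 0.70 for Eif2s2, and those of eIF1, eIF5 and eIF6 between -0.27 for Eif5b and 0.96 for Eif5a, at 94.9 FPKM in CD8SP and 48.6 FPKM in CD4SP. Eif4ebp1 and Eif5a lay just under the size required, and were called as higher in CD8SP by the exon-based value, with log2 ratios of 1.08 for Eif4ebp1 and 1.001 for Eif5a, and with RefSeq transcripts alone, with 1.07 for Eif4ebp1 and 1.04 for Eif5a. None of the 5 genes called above was called by the exon-based value. That value carries no deposited interval, so its calls rest on the size of the ratio alone. Genes of the exon junction complex and of nonsense-mediated decay ran between -0.43 for Upf3b and 0.76 for Ncbp2. The regulators Eif4ebp3 and Eif4e1b were listed at 0 in both lineages, though joined transcripts would give Eif4ebp3 1.30 FPKM in CD8SP and 1.22 FPKM in CD4SP.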

How the data were processed

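Short-read values are the deposited FPKM of single transcripts and their intervals. The authors pooled the lanes of a lineage into 1 Cufflinks assembly, per the file headers. Per the labels' protocols, ribosomal RNA was removed from total RNA before paired-end sequencing, so unspliced RNA is included. The deposited long-read tables give, per the file headers, each isoform's length, exon number and percent of A downstream, with read counts empty. Cufflinks 2.1.1, TopHat2 2.0.14, RSEM 1.3.1, GSNAP, Trimmomatic, FastQC and the build GRCm38 appear, without roles, in the submitters' processing notes. The depth in reads is unknown. A table of TPM values was not used.

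Gene FPKM is the sum over a gene's transcripts, and gene symbols come from the GRCm38.p6 RefSeq table, which held 30003 of 30589 RefSeq transcripts in the CD8SP file. Log2 ratios use log2(FPKM + 0.1), which understates changes of low genes. An FPKM of 0 can be a failed estimate. Splicing shares are the FPKM of 1 form over both forms, called at 20 points with at least 1 FPKM in both lineages, and a retained intron needed 10 exonic bases on each side. Bounds set 1 form at its low and the other at its high interval end. The calculations were checked on a copy of the CD4SP values with some multiplied by fixed factors, which tests the arithmetic and not the assembly. Every member is named, with the called genes and the extremes of each role, called annotated events and up to 3 other called events per gene. The members and lists were chosen with earlier results of these data known. Analyses used Python 3.11.15, SciPy 1.17.1 and matplotlib 3.10.9.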

Additional observations from a re-analysis of the deposited data

How the results depend on the processing

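No paired analysis was possible because the deposited values pool the lanes of each lineage, and for the same reason no replicate could be left out. The number of called members, 2, was also 2 with a pseudocount of 1 or 0.01, scaling to a median ratio of 0, exon-based values or no filter, with the same genes, and was 3 at 1.5-fold, with Eif4g2 added. With RefSeq transcripts alone it was 2 as well, but Eif4a1 was lost and Eif4g1 gained at 1.65. Alternatives chosen after seeing the data gave 3 without RefSeq identifiers lacking a gene entry, with Eif4g1 added as lower at -3.09, 1 with the median over annotated introns and 0 with joined transcripts. Eif4e3 reversed to -0.46 with joined transcripts and with the intron median. With RefSeq transcripts alone Eif4a1 was nearly equal between the lineages, at 0.011. The list's 5 calls became 3 with joined transcripts and 2 with exon-based values, Eif4ebp1 and Eif5a, none of them among the 5. With RefSeq transcripts alone there were 6, of which 2, Eif3j1 and Eif3j2, were among the 5. Eif4ebp1, Eif5a and Mknk2 were then called higher and Eif1 lower, with the RefSeq transcripts of Mknk2 listed at 0 in CD4SP and those of Eif1 at 0 in CD8SP. Mknk2 and Eif1 are named here after their values were seen. Among the 5, Mlst8 reversed to 0.26, Rps6kb2 to 0.19 and Eif3j1 to 0.31 with exon-based values, and Rps6kb2 to 0.10 with joined transcripts. With the intron median Rps6kb2 reversed to 0.27 and Eif3j1 to 0.21, and Larp4 was nearly equal between the lineages, at -0.010. Called annotated events, 2, became 1 where both forms had to exceed 0 FPKM and 0 with RefSeq transcripts alone. Members with a changed transcript share, 0, became 4 with assembled transcripts in the denominator. Long-read isoforms, 17 in CD8SP and 12 in CD4SP, became 10 and 6 without those followed by 60% A or more, and 10 and 7 with multi-exon isoforms alone. The cause of these changes was not tested where joined transcripts do not show it.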

Other observations

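Outside the family's own isoforms, both long-read libraries list an unspliced isoform on the strand opposite to Eif4a3, Eif4e and Eif4g3. The lengths were 2257 bases in CD8SP and 2258 bases in CD4SP opposite Eif4a3, 2957 bases in both libraries opposite Eif4e and 4380 bases in both opposite Eif4g3. In all 6 cases 90.0% of the bases after the 3′ end were A, and the part of priming at such stretches was not tested. The same 3 genes have an unspliced isoform on their own strand in both libraries, of 2256 bases in both for Eif4a3, of 2968 bases in CD8SP and 2973 bases in CD4SP for Eif4e, and of 4392 bases in CD8SP and 4397 bases in CD4SP for Eif4g3. These too were followed by many A bases, 75% in both libraries for Eif4a3 and 80% in both for Eif4g3. For Eif4e the percent of A was 75% in CD8SP and 85% in CD4SP. Priming was not tested here either.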
